A study of Mus musculus with 108 samples.

Results

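Potassium channel genes were followed through the stages of an inherited mouse glaucoma, in 2 tissues of the eye: the retina and the optic nerve head, or ONH. The members were all genes whose symbol starts with Kcn, except Kcnj10, that had a probe set annotated to them alone on an Affymetrix whole-genome array. There were 83 such genes among 18194 genes, and each was read from its probe set of highest mean signal in the tissue. Signals were deposited as RMA values on a log2 scale, on which a difference of 1 is a ratio of 2. Of the 83 members, 51 were bright enough to be tested in the ONH, 42 in the retina, 40 in both tissues and 30 in neither.

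All mice were labelled female. Severe, moderate and no or early eyes came from DBA/2J mice aged 10.5 months, a strain that develops pigmentary glaucoma and carries a mutation of Gpnmb. Preglaucoma eyes came from DBA/2J mice aged 4.5 months and were measured in the ONH. Control eyes came from mice aged 10.5 months without glaucoma, whose strain is given as D2-Gpnmb+ or DBA/2J-Gpnmb+, the same background with a working Gpnmb. The ONH was measured on 10 severe, 9 moderate, 21 no or early, 10 preglaucoma and 10 control arrays, and the retina on 10 severe, 8 moderate, 20 no or early and 10 control arrays. The no or early eyes were labelled as sets 1 and 2, whose difference the labels do not explain, and both sets entered with equal weight. Each array held 1 eye and 50 mice gave the 60 ONH samples, so the mouse was a random block in every fit apart from alternatives without it. The excised ONH included a little central retina, choroid and sclera, and the retina sample held no ONH.

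Potassium channels set the resting voltage of a cell and end its action potentials. Their pores belong to voltage-gated, inward rectifier, tandem-pore-domain and calcium- or sodium-activated families, and auxiliary subunits alter how a pore opens and where it is placed. Retinal neurons fire or grade their signals with voltage-gated pores, Müller glia clear potassium through inward rectifiers, and the pigment epithelium has an inward rectifier of its own.

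Gpnmb separated the strains: its signal lay between 5.75 and 7.92 in the ONH of DBA/2J mice aged 10.5 months, against 8.35 to 9.80 in control ONH, and between 4.89 and 6.47 in their retina, against 7.29 to 7.88 in control retina. In 1 mouse, which gave severe replicates 4 and 5 of both tissues, Xist lay between 2.89 and 4.37, against 9.97 or more on every other array. There were 9 arrays that correlated less with their own group than the other arrays did, among them ONH severe replicates 3 and 6, ONH moderate replicates 5 and 8 and retina moderate replicate 2. Mice are numbered in the labels, and all controls fell in 1 range of numbers, which also held 3 severe and 2 moderate arrays of each tissue.

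The promoters of 3 members are shown because these genes carry patterns described below for severe against control eyes. Kcnd2 fell in both tissues, Kcnj15 rose in the ONH, and Kcnj13 fell in the ONH and rose in the retina. Each sequence is the 250 bases before the transcription start in RefSeq (GRCm38.p6), on the strand of the gene, with motif matches in capitals. Kcnd2 lies at chr6:21215096-21215345 (plus strand), Kcnj15 at chr16:95257308-95257557 (plus strand) and Kcnj13 at chr1:87394730-87394979 (minus strand).
Kcnd2: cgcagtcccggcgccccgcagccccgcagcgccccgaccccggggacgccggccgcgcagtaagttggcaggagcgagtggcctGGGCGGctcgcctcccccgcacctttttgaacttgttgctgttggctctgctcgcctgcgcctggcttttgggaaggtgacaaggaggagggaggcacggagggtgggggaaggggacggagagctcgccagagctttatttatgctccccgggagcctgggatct
Kcnj15: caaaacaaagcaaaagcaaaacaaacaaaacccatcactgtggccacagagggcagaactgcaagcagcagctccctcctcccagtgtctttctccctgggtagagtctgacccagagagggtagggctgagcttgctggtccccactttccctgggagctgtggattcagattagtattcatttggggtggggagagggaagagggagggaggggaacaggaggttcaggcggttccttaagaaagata
Kcnj13: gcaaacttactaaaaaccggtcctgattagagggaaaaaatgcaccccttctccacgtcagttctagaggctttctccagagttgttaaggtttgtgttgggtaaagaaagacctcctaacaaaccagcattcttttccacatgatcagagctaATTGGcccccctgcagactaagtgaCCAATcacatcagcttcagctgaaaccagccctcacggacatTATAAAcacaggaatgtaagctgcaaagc
The motifs searched on both strands were TATAAA for the TATA box, CCAAT for the CCAAT box, GGGCGG for the GC box, TGANTCA for the AP-1 motif, TGACGTCA for the cyclic AMP element, TTCNNNGAA for the STAT site and CACGTG for the E-box, and no matches overlapped in these windows. Kcnd2 held GGGCGG at 166 bases before the start, letters found in 32.7% of 32851 windows of this length and in 44.3% of 88 windows from 63 members. Kcnj13 held TATAAA at 29 bases before the start, found in 12.4% of all windows and 3.41% of the member windows, and CCAAT on both strands, found in 33.8% and 29.5%. Kcnj15 held none of the 7 motifs. The share of G and C was 68.8% for Kcnd2, 53.2% for Kcnj15 and 45.2% for Kcnj13, against medians of 58.6% in the member windows and 52.4% in all windows. These are matches of letters, and no factor was measured on them.

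In severe ONH most of the tested potassium channel genes were lower than in control ONH. Of 51 members, 29 fell and 1 rose at an adjusted p under 0.05 (limma, Benjamini-Hochberg over all 12100 genes tested), or 58.8% of the members, against 24.2% of all genes (10.7% higher and 13.5% lower). The median log2 difference was -0.57 over the members and 0 over all genes. Severe and control arrays did not overlap in 7 members, against 2.59% of all genes. The count of called members was 29 without the arrays that stood apart and 32 without the mouse of low Xist. In such bulk samples, fewer cells of a type, less RNA per cell and a smaller share of the retina excised with the ONH cannot be told apart.

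**Figure D1:**
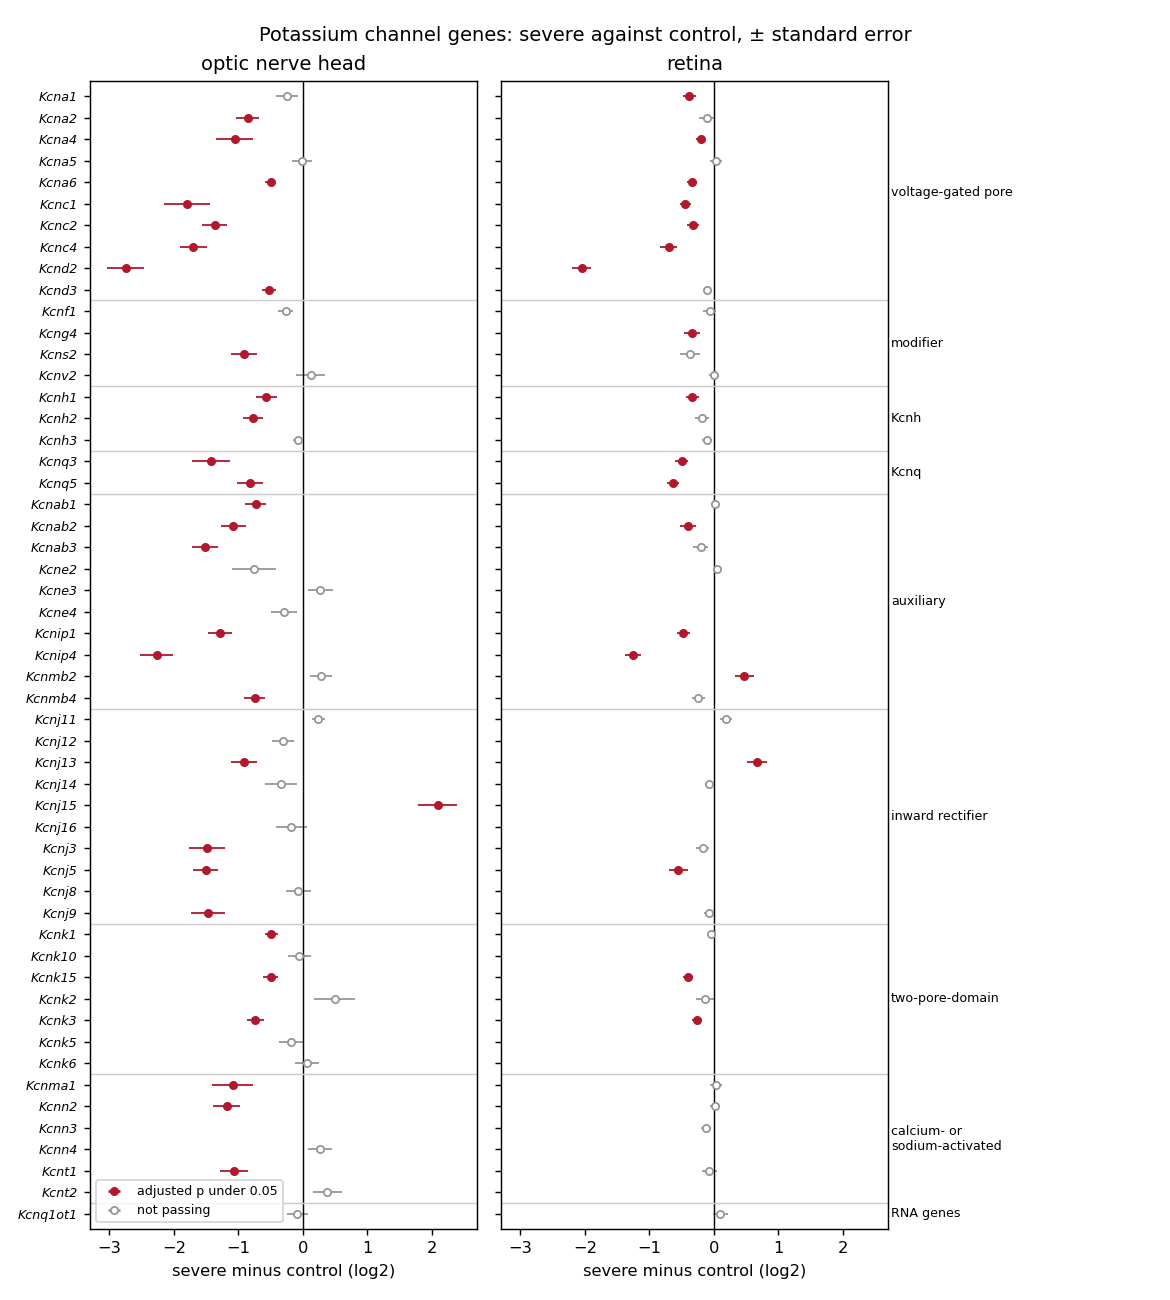
Log2 difference, severe minus control, of every potassium channel gene tested in the ONH and in the retina; points are limma estimates, bars are the standard error and red points have an adjusted p under 0.05. In the ONH 29 members are red below 0 and Kcnj15 alone is red above 0, and in the retina 17 are red below 0 and 2 above.

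Among the voltage-gated pore genes, 8 of 10 tested members fell in severe ONH. Kcnd2, the pore of the fast A-type current of neuronal cell bodies and dendrites, had signals (lowest, median and highest) of 3.02, 4.28 and 4.89 in severe ONH, against 5.13, 7.13 and 7.56 in control ONH. The arrays of these groups did not overlap, and the log2 difference was -2.75 ± 0.283 (SE, adjusted p 1.85e-11). The lowest control value was that of control replicate 10, and the other controls lay between 6.69 and 7.56. Kcnc genes encode pores that let neurons fire at high rates. Kcnc4 had signals of 5.36, 6.47 and 7.11 in severe ONH, against 7.55, 8.04 and 8.74 in control ONH, again without overlap, a log2 difference of -1.70 ± 0.21 (SE, adjusted p 5.27e-09). Kcnc2 had signals of 6.27, 7.90 and 8.52 in severe ONH, against 8.42, 9.07 and 9.42 in control ONH, with 9 of 10 severe arrays below every control, a log2 difference of -1.37 ± 0.194 (SE, adjusted p 1.39e-07). Kcnc1 spread more widely, with signals of 3.70, 7.37 and 8.08 in severe ONH, against 7.54, 8.61 and 9.13 in control ONH, and its log2 difference of -1.80 ± 0.353 (SE, adjusted p 7.43e-05) was -1.02, adjusted p 4.59e-05 without the arrays that stood apart.

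Kcna genes encode low-threshold pores found along axons. Kcna2 had signals of 6.76, 7.24 and 7.83 in severe ONH, against 7.61, 8.17 and 8.46 in control ONH, and 9 of 10 severe arrays lay below every control (log2 difference -0.86 ± 0.171 SE, adjusted p 9.01e-05). Kcna6 had signals of 6.28, 6.52 and 6.69 in severe ONH, against 6.75, 6.98 and 7.22 in control ONH, which did not overlap (log2 difference -0.50 ± 0.0887 SE, adjusted p 1.24e-05). Kcna1 did not pass, with signals of 7.26, 7.98 and 8.69 in severe ONH, against 7.86, 8.26 and 8.52 in control ONH and a log2 difference of -0.25 ± 0.174 (SE, adjusted p 0.31).

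Auxiliary subunits fell in 6 of 10 cases in severe ONH, and none rose. Kcnip4 and Kcnip1 encode calcium-binding proteins that attach to Kcnd pores. Kcnip4 had signals of 3.96, 4.87 and 5.59 in severe ONH, against 5.79, 7.29 and 7.84 in control ONH, without overlap, a log2 difference of -2.27 ± 0.25 (SE, adjusted p 1.76e-10). Its other tested probe sets gave log2 differences of -2.78 and -2.32, the first of them on the probe set read in the retina. Kcnip1 had signals of 4.23, 5.38 and 5.95 in severe ONH, against 6.01, 6.73 and 7.07 in control ONH, also without overlap, a log2 difference of -1.29 ± 0.188 (SE, adjusted p 3.03e-07). The cytoplasmic beta subunits of Kcna pores fell too: Kcnab3 had signals of 3.63, 4.42 and 5.43 in severe ONH, against 5.31, 6.05 and 6.56 in control ONH (log2 difference -1.52 ± 0.197 SE, adjusted p 1.94e-08), and Kcnab2 fell by 1.08 (adjusted p 2.67e-05). Kcnmb4, a neuronal auxiliary of the large-conductance BK channel, fell by 0.75 (adjusted p 0.000283). Kcne2 did not pass, with signals of 4.13, 8.15 and 8.80 in severe ONH, against 6.77, 8.65 and 9.24 in control ONH (adjusted p 0.0976).

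Kcnq genes encode the slow M-current, which restrains repeated firing, and both tested members fell in severe ONH. Kcnq3 had signals of 4.91, 6.75 and 7.61 in severe ONH, against 6.87, 8.14 and 8.58 in control ONH, with 6 of 10 severe arrays below every control (log2 difference -1.42 ± 0.294 SE, adjusted p 0.000164). Kcnq5 had signals of 4.91, 5.40 and 6.59 in severe ONH, against 5.61, 6.53 and 6.92 in control ONH (log2 difference -0.82 ± 0.204 SE, adjusted p 0.00163). Kcnh2, the erg channel, fell by 0.77 (adjusted p 0.000101), and 2 of 3 Kcnh genes fell in all. Modifier subunits form no channel alone, and 1 of 3 fell, which was Kcns2 (-0.91, adjusted p 0.000335). Kcnv2, a photoreceptor modifier, did not pass (0.12, adjusted p 0.75).

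The inward rectifiers held 4 falls and 1 rise among 10 tested members in severe ONH. Kcnj3, Kcnj5 and Kcnj9 encode pores opened by G proteins. Kcnj5 had signals of 4.18, 4.93 and 5.51 in severe ONH, against 6.02, 6.39 and 6.98 in control ONH, which did not overlap (log2 difference -1.51 ± 0.188 SE, adjusted p 6.59e-09). Kcnj3 had signals of 3.65, 6.05 and 6.69 in severe ONH, against 6.50, 7.15 and 7.86 in control ONH (log2 difference -1.49 ± 0.275 SE, adjusted p 3.08e-05). Kcnj9 had signals of 3.58, 5.98 and 6.83 in severe ONH, against 6.54, 7.37 and 7.75 in control ONH (log2 difference -1.47 ± 0.266 SE, adjusted p 2.13e-05). Kcnj8, the ATP-sensitive pore of pericytes and vascular smooth muscle, did not pass (-0.07, adjusted p 0.846), nor did Kcnj16, the partner of Kcnj10 in glia (-0.18, adjusted p 0.645).

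Kcnj15 was the member called higher. It encodes an inward rectifier known from kidney and stomach. Its signals were 2.57, 2.92 and 3.53 in control, 2.65, 3.36 and 4.26 in preglaucoma, 2.64, 4.66 and 5.87 in no or early, 3.23, 5.36 and 7.19 in moderate and 4.03, 5.18 and 5.87 in severe ONH. Every severe array, 8 of 9 moderate arrays and 20 of 21 no or early arrays lay above every control. Against control ONH, the log2 difference was 2.09 ± 0.3 (SE, adjusted p 2.1e-07) in severe, 2.47 ± 0.307 (SE, adjusted p 2.63e-08) in moderate and 1.58 ± 0.258 (SE, adjusted p 3.97e-05) in no or early ONH. It was tested because 17 ONH arrays reached 5, the level used to choose tested genes, and all of them were severe, moderate or no or early arrays. A gene tested only through the groups where it is high had to differ, and control signals so low make the size of the difference uncertain. In the retina its brightest probe set was a different one, which stayed below 5 on every array and was not tested, so the tissues were not compared for this gene. Against control ONH, microglia and macrophage markers were also higher: 5 of 7 rose in severe (10.7% of all genes), 6 in moderate (9.68%) and 3 in no or early ONH (2.19%). The mean of that list was 7.06 to 7.86 in severe ONH and 6.68 to 7.75 in preglaucoma ONH, against 6.13 to 7.26 in control ONH. Of these markers, 0 of 7 rose in no or early against preglaucoma ONH, where 9.83% of all genes rose. Against no or early ONH, 1 of 7 rose in moderate (2.85% of all genes) and 0 in severe ONH (3.35%). The part of these markers in the rise of Kcnj15 was not tested.

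**Figure D2:**
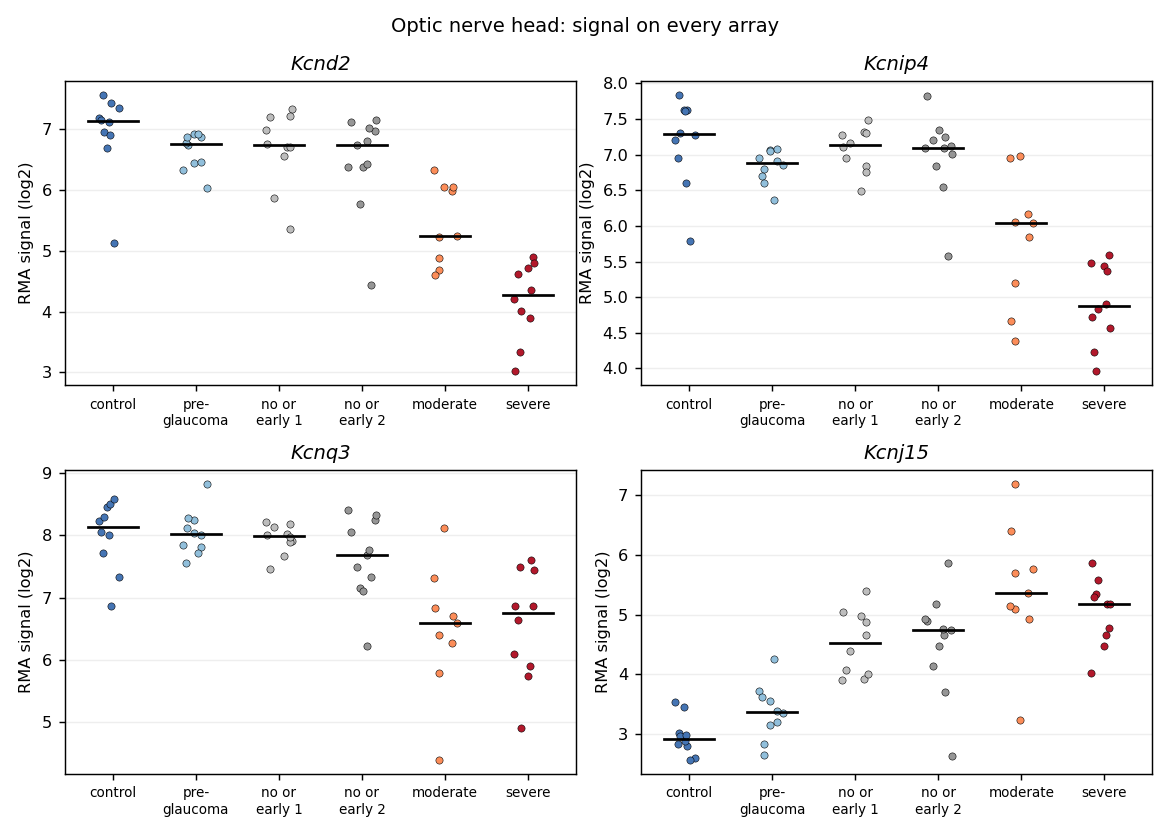
RMA signal (log2) of Kcnd2, Kcnip4, Kcnq3 and Kcnj15 on every ONH array, by group along the horizontal axis; each point is an array and each black line a group median. The severe medians of Kcnd2 (4.28) and Kcnip4 (4.87) are the lowest of their genes, and Kcnj15 has its lowest median (2.92) in controls.

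Tandem-pore-domain genes encode background leak channels, and 3 of 7 fell in severe ONH. Kcnk1 had signals of 8.47, 9.22 and 9.36 in severe ONH, against 9.33, 9.58 and 9.94 in control ONH (log2 difference -0.49 ± 0.104 SE, adjusted p 0.000252). Kcnk15 fell by 0.50 (adjusted p 0.000662). Kcnk2, a mechanically gated leak channel, had signals of 6.13, 7.94 and 8.54 in severe ONH, against 5.92, 7.46 and 7.89 in control ONH and did not pass (0.49, adjusted p 0.287), nor did Kcnk6 (0.06, adjusted p 0.849). Among calcium- or sodium-activated pores, 3 of 5 fell. Kcnn2, a small-conductance calcium-activated pore, fell by 1.18 (adjusted p 1.25e-05) and Kcnt1, a sodium-activated pore, by 1.07 (adjusted p 8.06e-05). Kcnma1, the BK pore, had signals of 5.22, 9.17 and 9.42 in severe ONH, against 7.75, 9.72 and 10.24 in control ONH, with 2 of 10 severe arrays below every control. Its log2 difference of -1.09 ± 0.314 (SE, adjusted p 0.00661) did not pass without the arrays that stood apart (-0.44, adjusted p 0.105). Kcnn4, an intermediate-conductance pore of microglia and blood cells, did not pass in severe ONH (0.26, adjusted p 0.34).

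Moderate ONH showed the same direction. Against control ONH, 24 members fell and 2 rose, or 51.0% of 51, against 21.6% of all genes (9.68% higher and 11.9% lower). Kcnq3 had the lowest estimate, with signals of 4.40, 6.59 and 8.12 in moderate ONH, against 6.87, 8.14 and 8.58 in control ONH and 7 of 9 moderate arrays below every control (log2 difference -1.51 ± 0.301 SE, adjusted p 0.000171). Kcnd2 fell by 1.48 (adjusted p 0.00014), Kcnip4 by 1.36 (adjusted p 8.13e-05), Kcnj3 by 1.11 (adjusted p 0.00287), Kcns2 by 1.09 (adjusted p 6.7e-05) and Kcnc4 by 1.05 (adjusted p 0.000246). Kcna1 fell here by 0.68 (adjusted p 0.0038). Kcnn4 rose by 0.51 (adjusted p 0.0486), a call lost under several alternatives. Among mice in the number range of the controls, with 2 moderate arrays, 3 members were called.

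In no or early ONH, 2 of 51 members were called against control ONH, or 3.92%, close to the 2.86% of all genes (2.19% higher and 0.669% lower). The first was Kcnj15, and the other was Kcnq5, with signals of 4.93, 5.79 and 6.41 in no or early ONH, against 5.61, 6.53 and 6.92 in control ONH (log2 difference -0.73 ± 0.176 SE, adjusted p 0.00888). Over the alternatives the count was 0 to 7. Against preglaucoma ONH, 5 members rose and 3 fell, or 15.7%, against 14.6% of all genes (9.83% higher and 4.78% lower). Kcnmb2, another BK auxiliary, had signals of 3.35, 4.11 and 4.92 in no or early ONH, against 4.65, 5.33 and 5.81 in preglaucoma ONH, with 16 of 21 no or early arrays below every preglaucoma array (log2 difference -1.10 ± 0.154 SE, adjusted p 4.42e-07). It was tested because 11 ONH arrays reached 5, none of them no or early, so the filter kept it through other groups, preglaucoma among them, and the size of this difference is uncertain. Kcnj15 rose (1.16, adjusted p 0.00116), as did Kcnj16 (0.67, adjusted p 0.0218), Kcnj5 (0.45, adjusted p 0.0476), Kcna6 (0.30, adjusted p 0.00461) and Kcnh3, an elk-type pore (0.24, adjusted p 0.0158). For Kcnj15 no preglaucoma array reached 5, and the filter kept it only through no or early, moderate and severe arrays. The filter thus favoured its rise, whose size is uncertain. Kcnq5 (-0.63, adjusted p 0.0104) and Kcnj11, an ATP-sensitive pore (-0.36, adjusted p 0.00272), fell. The calls of Kcnj5 and Kcnh3 were lost with quantile normalization, and the count was 3 with the mean of all probe sets and 33 with no filter. Age, stage and mouse number differ together here and cannot be told apart.

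Compared with no or early eyes, which share strain and age with them, severe ONH had 26 lower members and 1 higher, or 52.9%, against 13.2% of all genes (3.35% higher and 9.88% lower). Kcnd2 had signals of 3.02, 4.28 and 4.89 in severe ONH, against 4.44, 6.74 and 7.33 in no or early ONH, with 6 of 10 severe arrays below every no or early array (log2 difference -2.39 ± 0.241 SE, adjusted p 1.11e-11). Kcnc4 and Kcnj5 did not overlap between these groups, 2 of 51 members against 0.760% of all genes. Kcnj11 rose, with signals of 4.99, 5.50 and 5.76 in severe ONH, against 4.70, 5.06 and 5.46 in no or early ONH (log2 difference 0.40 ± 0.0859 SE, adjusted p 0.000486). Among mice in the number range of the controls, 5 members were called. Moderate against no or early ONH gave 13 falls and 1 rise, or 27.5%, against 7.47% of all genes (2.85% higher and 4.62% lower), with Kcnq3 (-1.29, adjusted p 0.000591) and Kcnip4 (-1.21, adjusted p 0.00016) lowest and Kcnj15 higher (0.89, adjusted p 0.0254). Without the arrays that stood apart, which include moderate replicates 5 and 8 and no or early 2 replicates 7 and 8, 23 members were called, against 8 with the range of mouse number as a factor, 9 with the mean of all probe sets and 0 among mice in the number range of the controls. The call of Kcnj15 was lost with that factor and with only these groups in the fit.

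Severe and moderate ONH differed in 6 members, or 11.8%, against 3.74% of all genes (1.27% higher and 2.46% lower). Kcnd2 had signals of 3.02, 4.28 and 4.89 in severe ONH, against 4.60, 5.24 and 6.32 in moderate ONH (log2 difference -1.27 ± 0.285 SE, adjusted p 0.00307). Kcnip4 (-0.91, adjusted p 0.0242), Kcnab2 (-0.72, adjusted p 0.0233), Kcnab3 (-0.69, adjusted p 0.0328) and Kcnip1 (-0.62, adjusted p 0.0489) were lower in severe ONH too, and Kcnj11 was higher (0.34, adjusted p 0.043). Kcnq3 did not pass in this comparison (0.09, adjusted p 0.914). The call of Kcnj11 was lost with only these groups in the fit, and those of Kcnip4, Kcnab2, Kcnab3 and Kcnip1 both there and with quantile normalization, which left 1 and 2 members called, and no filter gave 11.

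In the retina the differences were smaller. Severe against control retina gave 17 falls and 2 rises among 42 tested members, or 45.2%, against 32.0% of all genes (13.8% higher and 18.2% lower). The member median was -0.17, and that of all genes -0.02. Severe and control arrays did not overlap in 8 members, against 7.29% of all genes.

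Kcnd2 and its partner Kcnip4 were again the lowest. Kcnd2 had signals of 4.70, 5.75 and 6.30 in severe retina, against 7.26, 7.80 and 7.90 in control retina, without overlap, a log2 difference of -2.05 ± 0.151 (SE, adjusted p 3.71e-15). Kcnip4 had signals of 6.81, 7.16 and 7.46 in severe retina, against 8.05, 8.42 and 8.54 in control retina, without overlap, a log2 difference of -1.25 ± 0.123 (SE, adjusted p 3.67e-11). Kcnip1 fell without overlap as well (-0.47, adjusted p 0.000502). Of the voltage-gated pores, 7 of 10 fell. Kcnc4 had signals of 7.53, 7.64 and 8.24 in severe retina, against 8.16, 8.50 and 8.69 in control retina, with 9 of 10 severe arrays below every control (log2 difference -0.70 ± 0.136 SE, adjusted p 7.14e-05). Kcnc1 (-0.44, adjusted p 7.7e-05), Kcnc2 (-0.32, adjusted p 0.00518) and Kcna1 (-0.38, adjusted p 0.00347) fell without overlap. The call of Kcna1 was lost with the mean of all probe sets. Kcna6 fell by 0.34 (adjusted p 0.000495), and Kcna2 did not pass (-0.11, adjusted p 0.504). The modifier Kcns2 did not overlap between the groups and yet did not pass, with signals of 5.51, 5.97 and 6.06 in severe retina, against 6.07, 6.26 and 6.43 in control retina (-0.37, adjusted p 0.0601). Kcnab2 fell by 0.40 (adjusted p 0.00704) and Kcnk15 by 0.40 (adjusted p 8.11e-05).

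Both tested Kcnq genes fell in severe retina. Kcnq5 had signals of 4.61, 4.87 and 5.28 in severe retina, against 5.21, 5.52 and 5.86 in control retina (log2 difference -0.63 ± 0.098 SE, adjusted p 1.91e-06). Kcnq3 had signals of 4.65, 4.96 and 5.23 in severe retina, against 5.23, 5.43 and 5.65 in control retina, which touched but did not overlap before rounding (log2 difference -0.50 ± 0.0997 SE, adjusted p 0.00012). Of the calcium- or sodium-activated pores, 0 of 4 was called, and Kcnma1 had signals of 9.59, 9.91 and 10.10 in severe retina, against 9.74, 9.83 and 10.02 in control retina (0.04, adjusted p 0.747). Of the pores gated by G proteins, Kcnj5 fell (-0.55, adjusted p 0.00268), and Kcnj3 (-0.17, adjusted p 0.211) and Kcnj9 (-0.07, adjusted p 0.538) did not pass. The rises were Kcnmb2, with signals of 5.39, 5.65 and 5.91 in severe retina, against 4.71, 5.25 and 5.66 in control retina (log2 difference 0.47 ± 0.147 SE, adjusted p 0.0124), and Kcnj13, described below. The rise of Kcnmb2 did not pass when the range of the mouse's number was a factor (0.25, adjusted p 0.279).

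**Figure D3:**
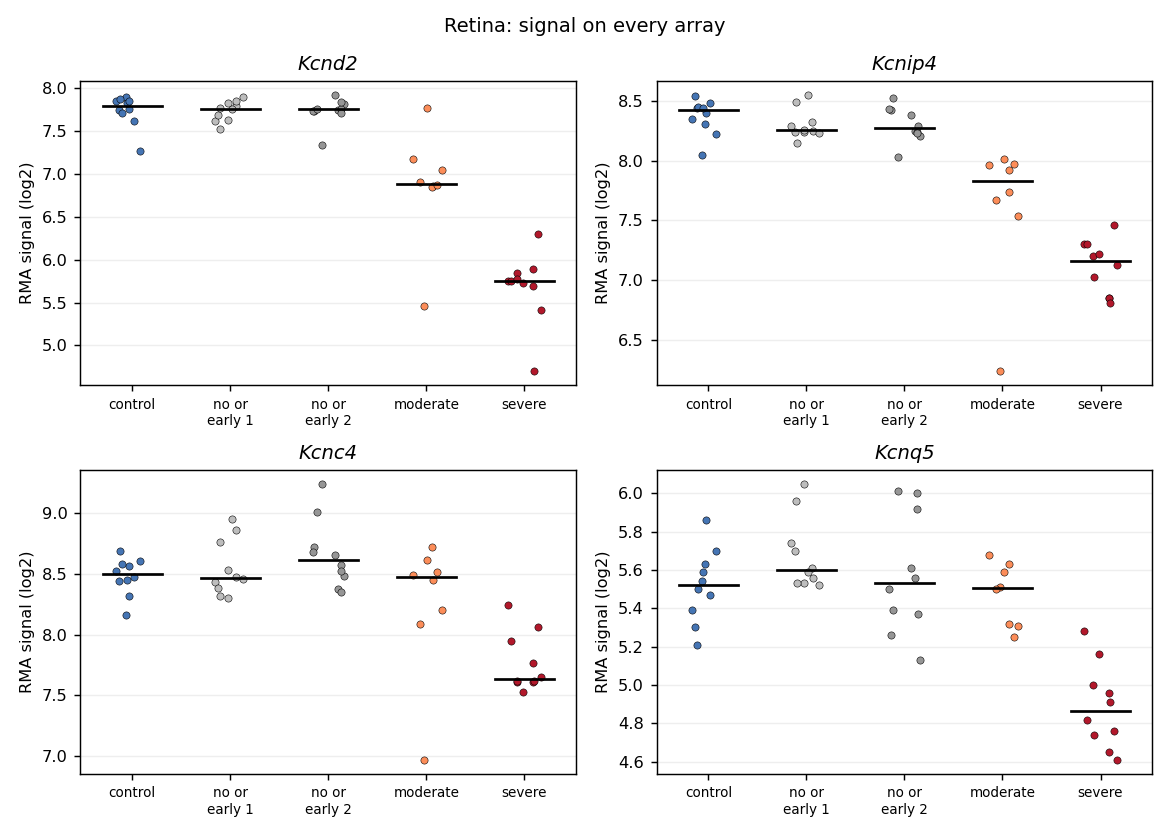
RMA signal (log2) of Kcnd2, Kcnip4, Kcnc4 and Kcnq5 on every retina array, by group along the horizontal axis; each point is an array and each black line a group median. Severe arrays hold the lowest median of each gene, with Kcnd2 between 4.70 and 6.30, and moderate replicate 2 is the low moderate point of Kcnd2 (5.46), Kcnip4 (6.24) and Kcnc4 (6.97).

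Moderate against control retina gave 12 falls and 0 rises, or 28.6%, against 15.5% of all genes (7.08% higher and 8.40% lower). Kcnd2 had signals of 5.46, 6.88 and 7.77 in moderate retina, against 7.26, 7.80 and 7.90 in control retina (log2 difference -0.87 ± 0.16 SE, adjusted p 0.000113). Kcnip4 had signals of 6.24, 7.83 and 8.01 in moderate retina, against 8.05, 8.42 and 8.54 in control retina (log2 difference -0.74 ± 0.13 SE, adjusted p 6.92e-05), and with Kcns2 it made up the 2 members without overlap, against 1.38% of all genes. Kcnj5 (-0.71, adjusted p 0.000896), Kcns2 (-0.64, adjusted p 0.00414), Kcnj3 (-0.44, adjusted p 0.00354) and Kcnc1 (-0.42, adjusted p 0.000993) followed. Without the arrays that stood apart 11 members were called, with only these groups in the fit 4, with the range of mouse number as a factor 7, with marker covariates 5, and among mice in the number range of the controls, with 2 moderate arrays, 2.

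No or early retina differed from control retina in 0 of 42 members by limma, against 0.0442% of all genes (0.00883% higher and 0.0353% lower); 2 had an unadjusted p under 0.05, and 1 was called with array weights. Kcnd2 had signals of 7.33, 7.75 and 7.92 in no or early retina, against 7.26, 7.80 and 7.90 in control retina. Against no or early retina, moderate retina had 12 lower members, or 28.6%, against 15.2% of all genes (7.65% higher and 7.51% lower), led by Kcnd2 (-0.87, adjusted p 1.75e-05) and Kcnip4 (-0.67, adjusted p 3.72e-05). Kcnip4 did not overlap there, 1 of 42 members against 0.212% of all genes. The count of 12 was 7 with array weights or with the range of mouse number as a factor, 5 with only these groups in the fit, 4 with marker covariates and 2 among mice in the number range of the controls. Severe against no or early retina gave 20 lower and 3 higher members, or 54.8%, against 44.1% of all genes (19.9% higher and 24.2% lower). Kcnd2 (-2.04, adjusted p 1.4e-17), Kcnip4 (-1.18, adjusted p 1.29e-12), Kcnc4, Kcnc1 and Kcnc2 did not overlap there, 5 of 42 against 3.72% of all genes. No filter gave 36 called members, and 14 were called among mice in the number range of the controls.

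Severe against moderate retina gave 10 falls and 7 rises, or 40.5%, against 38.3% of all genes (16.9% higher and 21.5% lower). Kcnd2 (-1.18, adjusted p 1.76e-07) and Kcnq5 (-0.58, adjusted p 2.38e-05) had the lowest estimates. Kcnmb2 (0.68, adjusted p 0.000654), Kcnj13 (0.46, adjusted p 0.0303), Kcne2 (0.28, adjusted p 0.000248), Kcnj3 (0.27, adjusted p 0.0407), Kcnma1 (0.25, adjusted p 0.0468) and Kcnv2 (0.23, adjusted p 0.0213) were higher. The calls of Kcnj3, Kcnma1 and Kcnv2 were lost when array weights were used and when mouse number range was a factor, among other alternatives. That of Kcnj13 was lost without the mouse of low Xist, with photoreceptor and pigment epithelium covariates and among mice in the number range of the controls. The count of 17 was 10 with mouse number range as a factor, 5 among mice in the number range of the controls and 26 with no filter.

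Whether the tissues differed was tested in 48 eyes that gave both, as the ONH signal minus the retina signal of 1 probe set, that of highest mean over both tissues. In severe against control eyes, 23 of 40 members were lower in this quantity and 0 higher, or 57.5%, against 19.5% of all genes (7.19% higher and 12.3% lower). The member median was -0.64 and that of all genes -0.01. Kcnip4 (-1.55, adjusted p 0.000186), Kcnj9 (-1.41, adjusted p 0.000354), Kcnc1 (-1.38, adjusted p 0.00897), Kcnj3 (-1.33, adjusted p 0.00148) and Kcnab3 (-1.33, adjusted p 6.94e-05) were more negative in the ONH than in the retina. For Kcnip4 that probe set was the one read in the retina, with log2 differences of -2.78 in severe ONH and -1.25 in severe retina, and not the one of the ONH values above. The call of Kcnc1 was lost with only these groups in the fit. Among mice in the number range of the controls, 15 members were called. Kcnd2 did not pass this test (-0.71, adjusted p 0.0739). In the same test, amacrine and horizontal cell markers were lower in 6 of 7 cases and bipolar cell markers in 4 of 6, with 0 higher. Pigment epithelium markers were lower in 4 of 6 and higher in 1. Ganglion cell markers were lower in 4 of 9 and higher in 4, and 0 of 8 photoreceptor markers were called. A smaller share of retina excised with severe ONH and a change within either tissue cannot be told apart. In moderate against control eyes, 8 members were lower and 0 higher, or 20.0%, against 7.13% of all genes (2.55% higher and 4.58% lower), with Kcnq3 (-1.63, adjusted p 0.000496), Kcnc4 (-1.01, adjusted p 0.00766) and Kcnq5 (-1.0, adjusted p 0.00626) lowest. This count was 22 without the arrays that stood apart, 14 with array weights, 3 with the range of mouse number as a factor and 0 among mice in the number range of the controls. The calls of Kcnc4 and Kcnq5 were lost with that factor.

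Kcnj13, the inward rectifier of the pigment epithelium, moved in opposite directions in the tissues in severe against control eyes. Its signals were 6.52, 8.21 and 8.79 in severe ONH, against 8.75, 9.02 and 9.52 in control ONH, with 9 of 10 severe arrays below every control (log2 difference -0.92 ± 0.201 SE, adjusted p 0.000382). In the retina they were 7.06, 7.65 and 8.07 in severe retina, against 6.03, 7.03 and 7.47 in control retina, with 8 of 10 severe arrays above every control (log2 difference 0.67 ± 0.162 SE, adjusted p 0.00136). The difference between the tissues was -1.57 ± 0.294 (SE, adjusted p 0.000126). Pigment epithelium markers fell in 5 of 6 cases in severe ONH, where the list mean was 7.04 to 9.36, against 9.42 to 9.99 in control ONH. In the retina 1 of 6 fell and none rose, and the list mean was 7.60 to 8.49 in severe retina, against 7.62 to 8.29 in control retina. Of all genes, 13.5% were lower in severe ONH and 18.2% in severe retina. With the means of the photoreceptor and pigment epithelium lists as covariates, the log2 difference of Kcnj13 was -0.10 in the ONH (adjusted p 0.599) and 0.60 in the retina (adjusted p 0.00015). These covariates were added after seeing the data, and the part of the pigment epithelium in the differences of Kcnj13 was not tested.

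**Figure D4:**
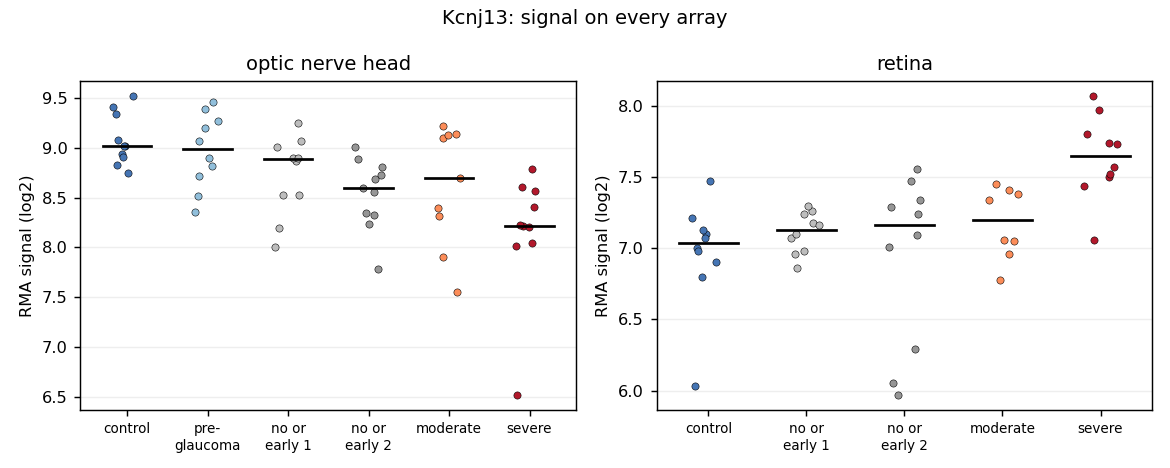
RMA signal (log2) of Kcnj13 on every array of the ONH and of the retina, by group along the horizontal axis; each point is an array and each black line a group median. The severe median is 8.21 against 9.02 in controls in the ONH, and 7.65 against 7.03 in controls in the retina.

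Of the lists of retinal neuron markers, that of ganglion cells fell furthest in both tissues. The median log2 difference of its tested genes was -3.59 in severe ONH and -2.67 in severe retina, each against control. For the amacrine and horizontal cell list these medians were -1.36 and -0.09. Retinal ganglion cell markers fell in 8 of 9 cases in severe ONH (list mean 5.56 to 6.84, against 7.84 to 8.52 in control ONH) and in 9 of 9 in severe retina (5.59 to 6.63, against 7.91 to 8.08 in control retina). Of all genes, 13.5% were lower in severe ONH. Amacrine and horizontal cell markers fell in 6 of 7 cases in severe ONH (4.33 to 6.73, against 6.45 to 7.45) and in 2 of 7 in severe retina (7.34 to 7.55, against 7.63 to 7.82), where 18.2% of all genes were lower. Bipolar cell markers fell in 5 of 6 cases in severe ONH (5.99 to 8.24, against 8.22 to 9.20) and in 0 of 6 in severe retina. Photoreceptor markers fell in 0 of 8 cases in severe ONH, where the list mean ran over 3.90 to 9.98, against 7.89 to 10.17 in control ONH, and in 0 of 8 in severe retina. With photoreceptor and pigment epithelium means as covariates, 30 members were called in severe ONH and 21 in severe retina. The part of the neuronal markers in the channel genes' differences was not tested.

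Genes whose proteins anchor or accompany potassium channels fell in 9 of 11 tested cases in severe ONH, where 13.5% of all genes were lower, in 8 of 11 in moderate ONH (11.9% of all genes) and in 1 of 11 in no or early ONH (0.669%), each against control ONH. In severe against control retina 5 of 9 fell, where 18.2% of all genes were lower; the genes named here were chosen after their values were seen. Ank3, the ankyrin that holds Kcnq channels at the axon initial segment, had signals of 8.60, 9.94 and 10.37 in severe ONH, against 10.25, 10.86 and 11.35 in control ONH (log2 difference -1.10 ± 0.167 SE, adjusted p 7.32e-07), and did not pass in severe retina (-0.10, adjusted p 0.139). Lgi1, a secreted protein found with Kcna channels, had signals of 4.32, 4.72 and 5.54 in severe ONH, against 5.66, 5.90 and 6.13 in control ONH (log2 difference -1.04 ± 0.181 SE, adjusted p 9.85e-06). In the retina Lgi1 had signals of 3.50, 3.89 and 4.29 in severe retina, against 5.16, 5.43 and 5.86 in control retina, without overlap (log2 difference -1.56 ± 0.109 SE, adjusted p 6.94e-16).

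Kcnj2, a strong inward rectifier, had signals of 2.66 to 3.30 in the ONH, its retinal signals were 2.32 to 3.55, and it was not tested. Of the 30 members called in severe against control ONH, 11 had another tested probe set, all of the same sign, and in 10 of them another probe set was called. In moderate against control ONH this held for 7 of 11, with 10 of the same sign. In severe against control retina it held for 5 of 6, with 5 of the same sign, and in moderate against control retina for 3 of 7. In severe against no or early retina 1 of 6 had another probe set called in the opposite direction.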

How the data were processed

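The log2 values were deposited by the authors as a table of 108 arrays and 45101 probe sets. The submitters' processing notes name GCOS, RMA and affy, and per the labels 20 ng of RNA was amplified for each array. RMA values carry no detection call, and the median signal of an array was 4.88 to 5.23 for ONH and 5.02 to 5.16 for retina, so the number of arrays, not a read depth, limits precision. Genes came from GEO's platform annotation: 34958 probe sets had 1 gene, 932 several and 9211 none, and only the first were used. The members and the lists were chosen with earlier results of these data known.

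A gene was tested in a tissue when its signal reached 5 on at least 8 arrays. All groups of a tissue entered 1 limma model (limma 3.58.1, R 4.3.3) with the mouse, read from the sample description, as a random block (within-mouse correlation 0.0774 in the ONH and 0.0366 in the retina). The same model was fitted to ONH minus retina differences of an eye (0.0987). P-values were adjusted by Benjamini-Hochberg over all genes tested, and the fit was tested on simulated data. In each comparison up to 6 called members with the largest rise and up to 6 with the largest fall were named, beside 25 fixed genes, which gave 36 genes. The alternatives were array weights, no filter, the mean of all probe sets, no mouse block, a replicate block, only the groups compared, a factor for ranges of mouse number, quantile normalization, and leaving out the low-Xist mouse or the arrays that stood apart; marker covariates and a restriction to the number range of the control mice were added after seeing the data. Within a tissue, replicate numbers were checked for pairing between groups. Deviations of arrays with the same number correlated by 0.0973 on average in the ONH and -0.0221 in the retina, with lowest values of -0.557 and -0.545. Arrays of other numbers gave -0.00896 and 0.005. Arrays of the same mouse gave -0.0883 and -0.033, so these correlations do not reveal shared mice and the check cannot decide. Between the tissues, the same group and number meant the same eye. Figures were drawn with matplotlib 3.10.9 in Python 3.11.15.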

Additional observations from a re-analysis of the deposited data

Results flagged for a closer look

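A sample was flagged where its gap to the nearest other sample of its group was large against the range of that group (past the critical value of the Dixon test). Over 30 named genes there were 285 gene and group combinations with 44 flags, and chance flags about 1 in 20. ONH no or early 2, with 11 arrays, was larger than the critical values used allowed and was not screened. Of the 44, 24 were on arrays that stood apart. Kcnab2 had a log2 signal of 6.17 on ONH no or early 1 replicate 10, where the other arrays of that group had 6.81 to 7.40. The log2 signals on ONH control replicate 10 were Kcnc1 7.54 (others 8.34 to 9.13), Kcnc2 8.42 (others 8.95 to 9.42), Kcnd2 5.13 (others 6.69 to 7.56), Kcne2 6.77 (others 7.96 to 9.24) and Kcnma1 7.75 (others 9.13 to 10.24). The log2 signals on ONH severe replicate 6 were Kcne2 4.13 (others 6.44 to 8.80) and Kcnj13 6.52 (others 8.01 to 8.79). Kcnh3 had a log2 signal of 4.67 on ONH severe replicate 7, where the other arrays of that group had 5.05 to 5.27. The log2 signals on ONH preglaucoma replicate 5 were Kcnip1 5.11 (others 6.05 to 6.57), Kcnj3 5.98 (others 6.57 to 7.09) and Kcnn2 5.49 (others 6.17 to 6.89). Kcnip1 had a log2 signal of 4.23 on ONH severe replicate 4, where the other arrays of that group had 5.03 to 5.95. Kcnj16 had a log2 signal of 8.59 on ONH no or early 1 replicate 3, where the other arrays of that group had 7.44 to 8.0. Kcnmb4 had a log2 signal of 6.30 on ONH preglaucoma replicate 10, where the other arrays of that group had 5.04 to 5.65. The log2 signals on retina no or early 1 replicate 2 were Kcna2 7.21 (others 7.64 to 7.99) and Kcnab2 8.45 (others 7.70 to 8.08). The log2 signals on retina no or early 2 replicate 3 were Kcna2 6.82 (others 7.52 to 7.99), Kcnab2 8.96 (others 7.81 to 8.25), Kcnd2 7.33 (others 7.71 to 7.92), Kcnk15 7.11 (others 6.39 to 6.64) and Kcns2 4.42 (others 5.87 to 6.38). The log2 signals on retina moderate replicate 2 were Kcna6 6.23 (others 6.84 to 7.24), Kcnab3 4.97 (others 5.86 to 6.56), Kcnc1 8.12 (others 9.05 to 9.45), Kcnc2 8.68 (others 9.84 to 10.16), Kcnc4 6.97 (others 8.09 to 8.72), Kcnd2 5.46 (others 6.85 to 7.77), Kcne2 9.36 (others 9.71 to 10.02), Kcnip1 5.74 (others 6.96 to 7.35), Kcnip4 6.24 (others 7.54 to 8.01), Kcnj3 6.01 (others 7.09 to 7.66), Kcnj5 5.03 (others 5.89 to 6.64), Kcnj9 6.67 (others 7.36 to 7.80), Kcnma1 8.68 (others 9.47 to 9.95) and Kcns2 4.58 (others 5.54 to 5.97). Kcnd2 had a log2 signal of 7.26 on retina control replicate 2, where the other arrays of that group had 7.62 to 7.90. Kcnj13 had a log2 signal of 6.03 on retina control replicate 6, where the other arrays of that group had 6.80 to 7.47. Kcnj3 had a log2 signal of 7.12 on retina severe replicate 6, where the other arrays of that group had 7.37 to 7.58. Kcnj9 had a log2 signal of 7.38 on retina control replicate 4, where the other arrays of that group had 7.63 to 7.83. Kcnk15 had a log2 signal of 5.58 on retina severe replicate 10, where the other arrays of that group had 5.93 to 6.30. Kcnma1 had a log2 signal of 10.02 on retina control replicate 3, where the other arrays of that group had 9.74 to 9.88. Kcnma1 had a log2 signal of 9.55 on retina no or early 1 replicate 3, where the other arrays of that group had 9.81 to 10.09. Kcnv2 had a log2 signal of 6.18 on retina severe replicate 7, where the other arrays of that group had 5.76 to 5.95.

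The ONH and the retina samples differed in their stage difference, by limma on the difference of the same eye, in the following named members. A differing share of retina excised with the ONH and a change within either tissue cannot be told apart. In severe against control eyes, the log2 difference of ONH minus retina was -1.57 for Kcnj13 (adjusted p 0.000126), -1.55 for Kcnip4 (adjusted p 0.000186, on the probe set read in the retina), -1.41 for Kcnj9 (adjusted p 0.000354), -1.38 for Kcnc1 (adjusted p 0.00897), -1.33 for Kcnj3 (adjusted p 0.00148) and -1.33 for Kcnab3 (adjusted p 6.94e-05). In moderate against control eyes, the log2 difference of ONH minus retina was -1.63 for Kcnq3 (adjusted p 0.000496), -1.01 for Kcnc4 (adjusted p 0.00766), -1.0 for Kcnq5 (adjusted p 0.00626), -0.85 for Kcnn2 (adjusted p 0.0232), -0.62 for Kcnmb4 (adjusted p 0.0174) and -0.62 for Kcnh2 (adjusted p 0.0394).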

How the results depend on the processing

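The count of members called in severe against control ONH ran from 21 to 37 over the alternatives, and was 30 as reported, and that in severe against control retina ran from 15 to 29, and was 19. Of 176 counts under an alternative, 40 moved by over 1.5 times. With array weights the members called were 7 in place of 2 for ONH no or early against control, 13 in place of 8 for ONH no or early against preglaucoma, 1 in place of 0 for retina no or early against control, 7 in place of 12 for retina moderate against no or early and 14 in place of 8 for ONH minus retina in moderate against control. With the mean of all probe sets the members called were 0 in place of 2 for ONH no or early against control, 9 in place of 14 for ONH moderate against no or early, 2 in place of 6 for ONH severe against moderate and 3 in place of 8 for ONH no or early against preglaucoma. With only the groups compared in the fit the members called were 5 in place of 2 for ONH no or early against control, 1 in place of 6 for ONH severe against moderate, 4 in place of 12 for retina moderate against control and 5 in place of 12 for retina moderate against no or early. With photoreceptor and pigment epithelium covariates the members called were 4 in place of 2 for ONH no or early against control, 2 in place of 6 for ONH severe against moderate, 5 in place of 12 for retina moderate against control and 4 in place of 12 for retina moderate against no or early. With only mice in the number range of the controls the members called were 3 in place of 26 for ONH moderate against control, 0 in place of 14 for ONH moderate against no or early, 5 in place of 27 for ONH severe against no or early, 1 in place of 6 for ONH severe against moderate, 2 in place of 12 for retina moderate against control, 2 in place of 12 for retina moderate against no or early, 14 in place of 23 for retina severe against no or early, 5 in place of 17 for retina severe against moderate, 0 in place of 8 for ONH minus retina in moderate against control and 15 in place of 23 for ONH minus retina in severe against control. With a factor for ranges of mouse number the members called were 8 in place of 14 for ONH moderate against no or early, 7 in place of 12 for retina moderate against control, 7 in place of 12 for retina moderate against no or early, 10 in place of 17 for retina severe against moderate and 3 in place of 8 for ONH minus retina in moderate against control. Without the arrays that stood apart the members called were 23 in place of 14 for ONH moderate against no or early and 22 in place of 8 for ONH minus retina in moderate against control. With no filter the members called were 11 in place of 6 for ONH severe against moderate, 33 in place of 8 for ONH no or early against preglaucoma, 29 in place of 19 for retina severe against control, 36 in place of 23 for retina severe against no or early and 26 in place of 17 for retina severe against moderate. With quantile normalization the members called were 2 in place of 6 for ONH severe against moderate. The replicate block was a factor for replicate number, fitted without the mouse block. It gave 31 in place of 30 for severe against control ONH and 20 in place of 19 for severe against control retina. Whether these numbers pair arrays of different groups within a tissue was not settled. Of 167 calls of named genes, 66 kept direction and call under every alternative that could be fitted. Under single alternatives, 223 of 1916 values lost their call and 3 changed sign, all with only mice in the number range of the controls: 0.08 for Kcnd2 in moderate against no or early ONH, -0.02 for Kcnma1 in severe against moderate retina and 0.05 for Kcnh2 in ONH minus retina in moderate against control eyes. That restriction leaves fewer arrays, the mean of all probe sets tests 36 members in the ONH and no filter tests all 83. The cause of the changes under any alternative was not tested. No or early against preglaucoma ONH could not be fitted with the mouse number range or with only mice in the number range of the controls, and covariates were not run for ONH minus retina. Leaving out each replicate in turn was not done. RMA values near the bottom of the scale, such as those of Kcnj15 in control ONH, have no stated limit of detection, so sizes there are uncertain.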

Other observations

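The other marker lists gave the following counts in severe against control eyes. Of all genes, 10.7% were higher and 13.5% lower in the ONH, and 13.8% were higher and 18.2% lower in the retina. Of the astrocyte and Müller glia markers, 1 rose and 5 fell of 8 in the ONH and 4 rose and 0 fell of 8 in the retina, with list means of 9.16 to 9.49 in severe retina, against 8.93 to 9.13 in control retina. Of the oligodendrocyte markers, 0 rose and 2 fell of 4 in the ONH, where the list mean was 5.48 to 6.53 in severe ONH, against 5.37 to 9.94 in control ONH. Of the endothelial markers, 0 rose and 0 fell of 5 in the ONH, and of the pericyte and smooth muscle markers, 1 rose and 0 fell of 6. Skeletal muscle markers were not bright enough to be tested, with list means of 3.20 to 4.87 in severe ONH, against 3.29 to 3.74 in control ONH.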
